A study of Mus musculus with 17 samples.

Results

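The suppressor of cytokine signaling (SOCS) genes and Cish were followed across sorted myeloid cells of BALB/c mice. Members were the rows of the count table whose symbol is Socs with 1 digit, or Cish. All 8 genes that fit this rule were found (Socs1 to Socs7 and Cish), among 10207 rows with a symbol. Tumor-associated macrophages (TAM, 3 libraries) were sorted as CD11b+ Gr1- F4/80+ cells from 4T1-luc tumors, which grow from a luciferase-expressing mouse mammary carcinoma line placed in the mammary fat pad. Marrow cells of mice that carried such a tumor (BMDM_T, 4 libraries) and marrow cells of healthy mice (BMDM_H, 4 libraries of the same sequencing batch) came through 1 common gate, CD11b+ Gr1+ F4/80low. Another 4 BMDM_H libraries and 2 libraries of mammary gland macrophages form a separate batch whose rows do not follow the gene symbols, so no SOCS value was read from them. Mice with tumors are labelled as 8 weeks old and healthy mice as 12 weeks old, and a difference between BMDM_T and BMDM_H due to the tumor cannot be told apart from one due to age. Tumors were digested with collagenase, while marrow was flushed from the bone.

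Cytokine receptors without kinase activity of their own pass their signal through Janus kinases (JAK) to STAT transcription factors. STAT factors switch on SOCS genes, and SOCS proteins then bind the receptor or the kinase through an SH2 domain, block it, and recruit an elongin and cullin ubiquitin ligase through the SOCS box, which closes a negative feedback loop. In myeloid cells SOCS3 is the known brake on gp130 and G-CSF receptor signals, SOCS1 on interferon signals, and CISH and SOCS2 on signals that run through STAT5.

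Promoter sequence was matched by symbol in a RefSeq table of build GRCm38.p6, which holds windows from 250 bases before to 50 bases after the start site. Of the 8 members, 4 matched (Cish, Socs1, Socs3 and Socs4). The windows of Socs3 and Cish, whose transcripts rose in TAM, and of Socs1, whose transcript passed the test in none of the 3 comparisons, follow, with the STAT motif TTCNNNGAA in capitals. The motif is its own reverse complement, so a match on one strand is a match on both.
Socs3, chr11:117969317-117969616, minus strand: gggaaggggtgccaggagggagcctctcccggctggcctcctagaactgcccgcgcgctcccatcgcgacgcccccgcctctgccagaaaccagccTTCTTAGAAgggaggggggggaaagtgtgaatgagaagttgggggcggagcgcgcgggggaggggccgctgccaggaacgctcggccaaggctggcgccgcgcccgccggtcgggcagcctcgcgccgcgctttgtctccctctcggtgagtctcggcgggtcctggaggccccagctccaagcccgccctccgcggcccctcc
Cish, chr9:107296409-107296708, plus strand: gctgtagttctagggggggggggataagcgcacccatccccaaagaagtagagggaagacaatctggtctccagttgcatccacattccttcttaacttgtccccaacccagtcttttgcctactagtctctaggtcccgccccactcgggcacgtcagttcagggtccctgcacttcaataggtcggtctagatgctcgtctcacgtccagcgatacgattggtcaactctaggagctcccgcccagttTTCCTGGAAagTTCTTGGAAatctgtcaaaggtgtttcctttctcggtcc
Socs1, chr16:10785487-10785786, minus strand: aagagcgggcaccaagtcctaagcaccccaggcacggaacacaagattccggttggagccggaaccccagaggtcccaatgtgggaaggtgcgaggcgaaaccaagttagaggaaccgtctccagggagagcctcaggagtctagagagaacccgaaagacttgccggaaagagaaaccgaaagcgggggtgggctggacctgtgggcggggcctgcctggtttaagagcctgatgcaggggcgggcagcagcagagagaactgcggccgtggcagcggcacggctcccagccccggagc
Socs3 had 1 match, at bases -154 to -146 counted from the start site. Cish had 2 matches that do not overlap, at bases 1 to 9 and 12 to 20. Socs1 and Socs4 had no match, which says only that these letters are not in those windows. The windows of Socs3 and Cish lie wholly inside the GENCODE gene spans (117966079 to 117970047 and 107296026 to 107302784). Their start sites are thus downstream of the outer 5' ends of those spans, while the Socs1 and Socs4 windows cross theirs. The sequence at the outer 5' ends of Socs3 and Cish was not read. Of all 32851 windows in the table, 8.3% held the motif and 0.457% held it 2 or more times. The related spacing TTCNNNNGAA, found in 6.95% of windows, was in none of the 4.

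**Figure D1:**
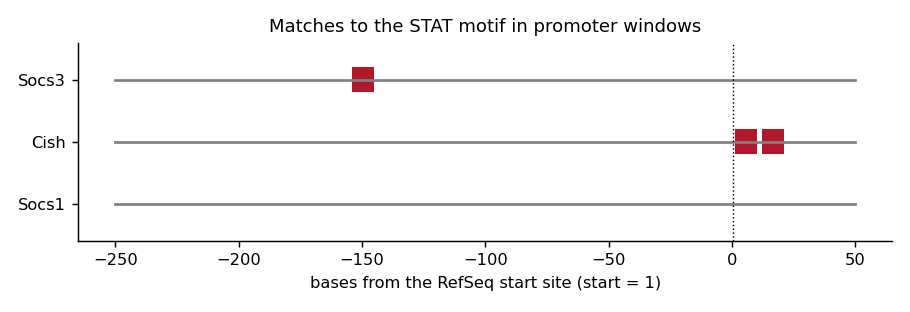
Position of each match to the STAT motif (red box) in the RefSeq promoter window of Socs3, Cish and Socs1, in bases from the start site (dotted line). Socs3 has 1 match before the start, Cish has 2 just after it and Socs1 has none.

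Total counts ran from 1748338 to 3747929 in TAM, from 931278 to 1218977 in BMDM_T and from 387940 to 1286844 in BMDM_H. Levels below are CPM (counts scaled to a library total of 1e6), with totals adjusted by TMM factors, which correct for a few abundant genes. Libraries are 3'-end libraries, so a comparison between genes is less sure than one between groups. The marker list sums, the rank of Socs3 among members and the size of the Socs3 to Socs2 ratio set genes side by side and carry this limit. Markers of the labelled cell types were checked. In TAM the 9 macrophage markers with a row summed to 59404 to 73161 CPM, against 2113 to 2616 CPM in BMDM_T and 2704 to 3706 CPM in BMDM_H. The marrow cells are labelled as monocytes, but 13 neutrophil markers summed to 168800 to 204740 CPM in BMDM_T and 138630 to 212820 CPM in BMDM_H, while 8 monocyte markers summed to 2112 to 3134 CPM in BMDM_T and 2654 to 4921 CPM in BMDM_H. In TAM the same neutrophil list summed to 363 to 589 CPM. S100a9, a gene of that list, averaged 202 ± 44.8 CPM in TAM (SD, n = 3), 59245 ± 4013 CPM in BMDM_T and 52054 ± 13927 CPM in BMDM_H (SD, n = 4 each). Each comparison of TAM with marrow therefore sets unlike cell populations side by side. In bulk samples such as these, fewer cells of a type and less RNA per cell cannot be told apart.

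Socs3 was the member with the highest counts in every library and was higher in BMDM_T than in BMDM_H. In TAM it had 557, 857 and 931 CPM. It had 508, 450, 472 and 339 CPM in BMDM_T and 93.9, 98.1, 83.7 and 70.3 CPM in BMDM_H. The 3 groups did not overlap, and the order of the levels was TAM above BMDM_T above BMDM_H. BMDM_T averaged 443 ± 72.9 CPM and BMDM_H 86.5 ± 12.4 CPM (SD, n = 4 each), a 5.01-fold rise (log2 fold change 2.32 ± 0.20 SE, edgeR quasi-likelihood adjusted p = 2.73e-07). This was the gene with rank 7 by p among 7518 genes tested. In this comparison 2.82% of all genes tested were called higher (adjusted p under 0.05) and 2.00% lower. Groups did not overlap for 11.2% of genes, with BMDM_T above BMDM_H for 5.99%. TAM, at 782 ± 198 CPM (SD, n = 3), stood 1.77-fold above BMDM_T (log2 fold change 0.82 ± 0.19 SE, edgeR adjusted p = 0.000941), a comparison in which 30.1% of genes were called higher and 28.7% lower, and in which groups did not overlap for 58.1% of genes, with TAM above BMDM_T for 30.4%. Against BMDM_H the rise in TAM was 8.86-fold (3.15 ± 0.21 SE, edgeR adjusted p = 1.08e-10, with 28.0% of genes called higher and 28.3% lower). Here groups did not overlap for 53.8% of genes, with TAM above BMDM_H for 27.5%. The last 2 comparisons share the TAM libraries, and each shares a marrow group with the comparison within marrow.

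Values that moved beside Socs3 were read from marker lists. The 17 dissociation and stress genes, which tissue digestion can raise, summed to 8837 to 10293 CPM in TAM, to 3551 to 5636 CPM in BMDM_T and to 5219 to 6281 CPM in BMDM_H. The list was thus higher in TAM, where Socs3 was higher too, and its part in that difference was not tested. Between BMDM_T and BMDM_H 1 of these genes was called higher and 4 lower. Of the 13 neutrophil markers 4 were called higher and 0 lower in BMDM_T. The summed level overlapped between the marrow groups, but some single markers did not. Elane had 361 to 486 CPM in BMDM_T and 109 to 172 CPM in BMDM_H, and Mpo 1526 to 1863 and 380 to 621 CPM. Cxcr2 had 635 to 771 CPM in BMDM_T and 217 to 285 CPM in BMDM_H, and Mmp9 1784 to 3524 and 1116 to 1244 CPM. Of the macrophage markers 4 of 9, of the monocyte markers 4 of 8 and of the erythroid markers 6 of 6 were lower in BMDM_T, and the erythroid markers summed to 6.31 to 21.9 CPM in BMDM_T and 54.9 to 270.6 CPM in BMDM_H. The part of these genes in the Socs3 difference was not tested. Among markers of other cells, the epithelial and tumor cell list (7 of 8 genes with a row) summed to 66.7 to 103 CPM in TAM, 12.9 to 35.8 CPM in BMDM_T and 20.7 to 62.5 CPM in BMDM_H, and the endothelial and fibroblast list (5 of 8) to at least 67.7 CPM in each TAM library, at most 34.3 CPM in BMDM_T and at most 50.9 CPM in BMDM_H. The 5 B lineage markers with a row summed to 6.67 to 13.8 CPM in TAM, 236 to 416 CPM in BMDM_T and 121 to 311 CPM in BMDM_H, and Cd79a was at 0 counts in TAM. The 4 T and NK cell markers with a row summed to 8.89 to 18.6 CPM in TAM, 250.5 to 307.6 CPM in BMDM_T and 195 to 314 CPM in BMDM_H, and the 6 eosinophil and basophil markers to 0.776 to 1.67 CPM in TAM, 376 to 450.2 CPM in BMDM_T and 299 to 595 CPM in BMDM_H. The summed level of the 3 dendritic cell markers with a row overlapped between the groups. Between BMDM_T and BMDM_H, 1 of 3 tested B lineage genes and 1 of 2 tested T and NK cell genes were called higher. Whether these lists bear on the Socs3 differences was not tested. In GRCm38 the gene lies on chromosome 11 from 117966079 to 117970047 on the minus strand.

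**Figure D2:**
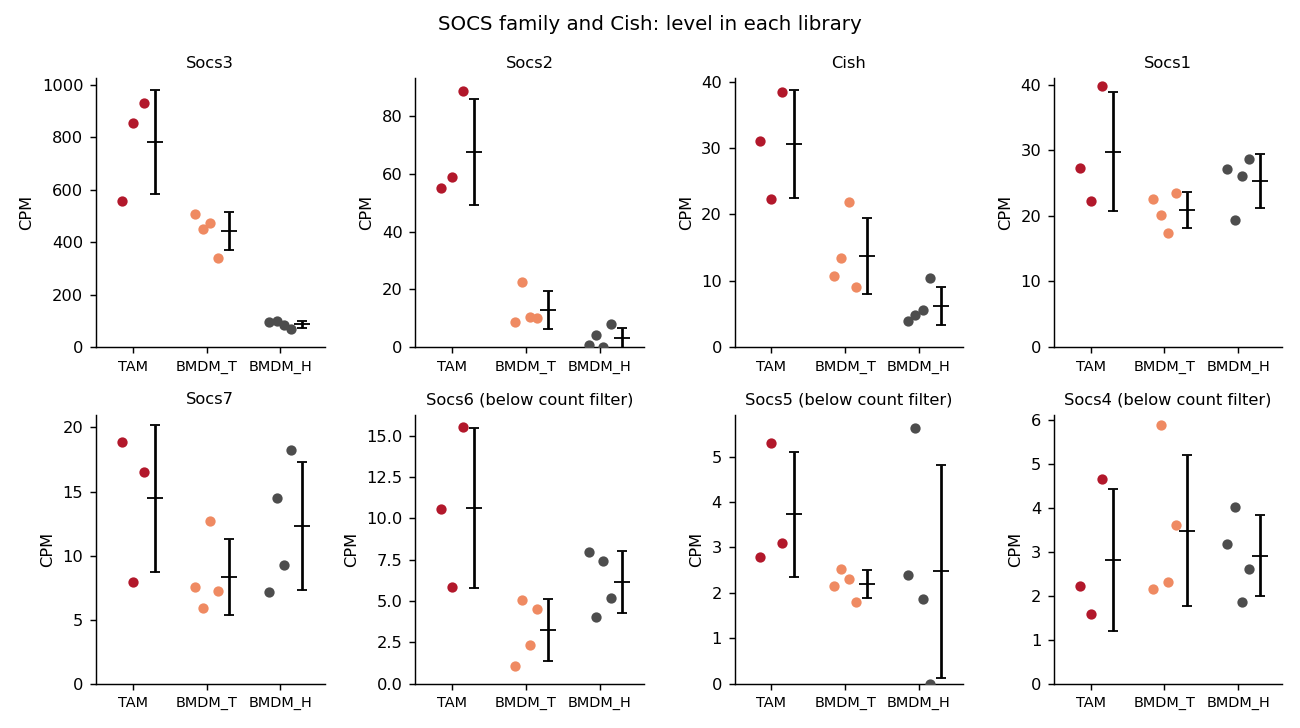
Level of each of the 8 members in CPM (linear axis from 0) in every library of TAM, BMDM_T and BMDM_H, with the group mean and SD as a black bar beside the points (n = 3, 4 and 4; the bar of Socs2 in BMDM_H is clipped at 0). Socs3 separates all 3 groups, Socs2 is highest in TAM, and Socs1 and Socs7 overlap between the groups.

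Socs2, a regulator best known as a brake on growth hormone and STAT5 signals, was higher in TAM than in either marrow group. It was also called higher in BMDM_T than in BMDM_H. It had 55.0, 58.9 and 88.7 CPM in TAM. It had 8.61, 22.7, 10.4 and 9.92 CPM in BMDM_T and 0.796, 4.02, 0 and 7.81 CPM in BMDM_H. The groups did not overlap, but BMDM_T replicate 2 stood apart from the other 3 BMDM_T libraries, and the lowest BMDM_T level was close to the highest BMDM_H level. The BMDM_H values rest on 1, 5, 0 and 3 counts. A library with 0 counts allows up to 3 counts, which is 5.58 CPM in BMDM_H replicate 3 and covers counting error only. TAM averaged 67.5 ± 18.4 CPM (SD, n = 3) and BMDM_T 12.9 ± 6.57 CPM (SD, n = 4), a 5.12-fold rise (log2 fold change 2.36 ± 0.33 SE, edgeR adjusted p = 4.56e-06). Against BMDM_H, at 3.16 ± 3.55 CPM, the rise in TAM was 24.9-fold (4.64 ± 0.47 SE, edgeR adjusted p = 4.83e-08).

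Within marrow, Socs2 was 4.86-fold higher in BMDM_T (log2 fold change 2.28 ± 0.58 SE, edgeR adjusted p = 0.0222). That call depended on single libraries. The edgeR adjusted p was 0.0905 without BMDM_T replicate 2, 0.103 without BMDM_H replicate 1 and 0.0573 without BMDM_H replicate 3, with log2 fold changes of 1.83, 1.82 and 2.03. Without BMDM_H replicates 3 and 4 together it was 0.053, and with limma-voom 0.0558. Socs2 passed the filter on low counts with the TAM libraries in the fit. With only the 2 marrow groups it fell under that filter and was not tested. The gene lies on chromosome 10 from 95385362 to 95417180 on the minus strand.

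Cish, the founding member of the family and a STAT5 target, was higher in TAM than in either marrow group. It had 31.1, 22.3 and 38.5 CPM in TAM, 10.8, 13.4, 21.9 and 9.02 CPM in BMDM_T, and 3.98, 4.83, 5.58 and 10.4 CPM in BMDM_H. TAM did not overlap with either marrow group, and the 2 marrow groups overlapped. TAM averaged 30.6 ± 8.13 CPM (SD, n = 3) and BMDM_T 13.8 ± 5.73 CPM (SD, n = 4), a 2.28-fold rise (log2 fold change 1.19 ± 0.30 SE, edgeR adjusted p = 0.00206). Against BMDM_H, at 6.20 ± 2.88 CPM (SD, n = 4), it was 5.70-fold (2.51 ± 0.38 SE, edgeR adjusted p = 9.31e-06). The difference between BMDM_T and BMDM_H did not pass (1.32 ± 0.42 SE, 95% interval 0.44 to 2.20, edgeR adjusted p = 0.0774). Cish lies on chromosome 9 from 107296026 to 107302784 on the plus strand. The antisense gene Gm17041 and the pseudogene Gm17040 overlap its exons on the other strand, and since the strand setting of the counting is not given in the sources used here, reads of these genes could be counted together.

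Socs1, the main brake on interferon receptors, and Socs7 passed the test in none of the 3 comparisons. Socs1 had 27.2, 22.3 and 39.8 CPM in TAM, 22.6, 20.2, 17.3 and 23.5 CPM in BMDM_T, and 27.1, 19.3, 26.0 and 28.6 CPM in BMDM_H, so that all 3 groups overlapped. The log2 difference between TAM and BMDM_T was 0.53 ± 0.25 SE (95% interval 0.01 to 1.05, edgeR adjusted p = 0.0722). It was -0.23 ± 0.27 SE between BMDM_T and BMDM_H (95% interval -0.79 to 0.33, edgeR adjusted p = 0.726) and 0.30 ± 0.26 SE between TAM and BMDM_H (95% interval -0.23 to 0.83, edgeR adjusted p = 0.33). A p above the threshold does not show that the Socs1 levels are alike, and the intervals give the changes these libraries leave room for. Leaving out TAM replicate 2 gave Socs1 an adjusted p = 0.0356 in TAM against BMDM_T, and scaling by library totals alone gave 0.0223. Socs1 lies on chromosome 16 from 10782240 to 10785536 on the minus strand.

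Socs7 had 18.9, 7.96 and 16.5 CPM in TAM, 7.54, 5.88, 12.7 and 7.22 CPM in BMDM_T, and 7.16, 14.5, 9.30 and 18.2 CPM in BMDM_H. All groups overlapped. Its log2 difference was 0.84 ± 0.38 SE between TAM and BMDM_T (edgeR adjusted p = 0.0644), -0.51 ± 0.42 SE between BMDM_T and BMDM_H (edgeR adjusted p = 0.595) and 0.33 ± 0.38 SE between TAM and BMDM_H (edgeR adjusted p = 0.477). For TAM against BMDM_T it had an adjusted p = 0.0199 without TAM replicate 2, 0.0359 without BMDM_T replicate 3 and 0.0329 with library totals alone. TAM replicate 3, the library with the most counts, had the highest TAM level of 6 of the 8 members. Whether this bears on the TAM means was not tested.

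Socs4, Socs5 and Socs6 did not pass the filter on low counts and were not tested in the main fit. Socs4 had 4, 3 and 18 counts in TAM, 2, 7, 2 and 4 in BMDM_T, and 4, 5, 1 and 1 in BMDM_H. Socs5 had 5, 10 and 12 counts in TAM, 2, 3, 2 and 2 in BMDM_T, and 3, 7, 1 and 0 in BMDM_H. Both are family members linked in the literature to epidermal growth factor receptor signals, and the scaled levels of Socs4 overlapped between all groups. For Socs5 they were 2.78 to 5.30 CPM in TAM, 1.80 to 2.52 CPM in BMDM_T and 0 to 5.63 CPM in BMDM_H, so that TAM lay above BMDM_T on 2 or 3 counts in each BMDM_T library. As ratios of summed and scaled counts, TAM to BMDM_T was 0.903 for Socs4 (95% exact counting interval 0.458 to 1.84) and 1.63 for Socs5 (0.742 to 3.93), intervals that cover counting error only.

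Socs6, a SOCS protein that acts on receptor tyrosine kinases, had 19, 11 and 60 counts in TAM, 1, 6, 2 and 5 in BMDM_T, and 10, 5, 4 and 2 in BMDM_H. Its levels were 5.83 to 15.5 CPM in TAM, 1.08 to 5.04 CPM in BMDM_T and 4.02 to 7.96 CPM in BMDM_H, so that TAM and BMDM_T did not overlap. The ratio of summed and scaled counts, TAM to BMDM_T, was 3.48 (95% exact counting interval 1.97 to 6.63, counting error only). A fit without the filter gave a log2 fold change of 1.63 ± 0.47 SE (edgeR adjusted p = 0.00504) for TAM against BMDM_T and -0.82 ± 0.56 SE (adjusted p = 0.529) for BMDM_T against BMDM_H. For TAM against BMDM_H it gave 0.82 ± 0.45 SE (edgeR adjusted p = 0.133), with overlapping groups and a ratio of summed and scaled counts of 1.94 (95% exact counting interval 1.20 to 3.29). In TAM against BMDM_T the fit without the filter called 2636 of 10206 genes higher and 2540 lower. It gave log2 fold changes of -0.27 for Socs4 and 0.67 for Socs5 there.

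In all, 2 of the 8 members were called higher in BMDM_T against BMDM_H (Socs3 and Socs2), with 3 of the 8 not tested, beside 2.82% of all genes tested that were called higher there. In TAM against BMDM_T, and in TAM against BMDM_H, 3 of the 8 were called higher (Socs3, Socs2 and Cish). By edgeR at an unadjusted p under 0.05, by DESeq2 and by limma-voom the count of members called lower was 0 in all 3 comparisons, as it was by edgeR with adjusted p. Since 30.1% of all genes were called higher in TAM against BMDM_T and 28.0% in TAM against BMDM_H, the counts are given as a description. Without TAM replicate 2 the count for TAM against BMDM_T was 6, and with library totals alone it was 5. The count within marrow was 1 when BMDM_T replicate 2, BMDM_H replicate 1 or BMDM_H replicate 3 was left out. It was also 1 with only the 2 marrow groups in the fit, where Socs2 fell under the filter.

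**Figure D3:**
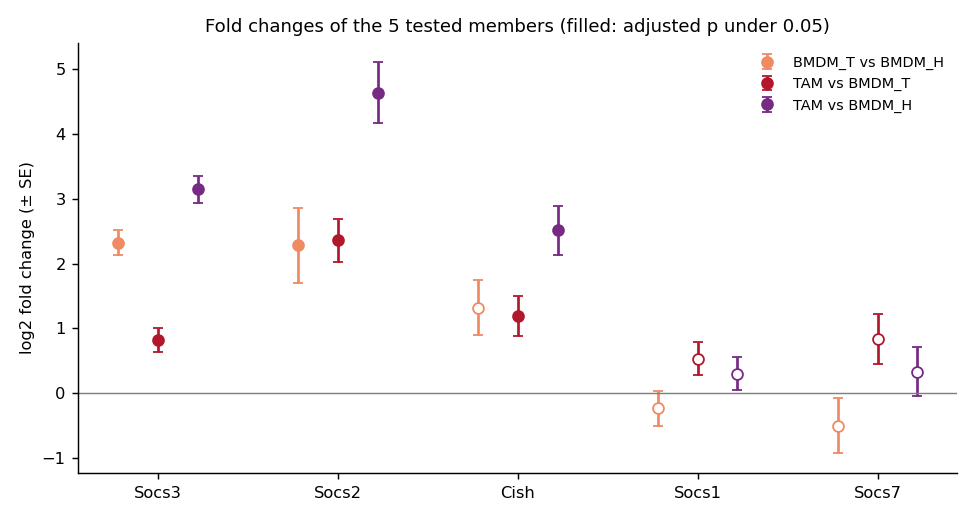
Log2 fold change with its SE (edgeR) of the 5 tested members in the 3 comparisons, with filled circles for an adjusted p under 0.05. Socs3 has 2.32 in BMDM_T against BMDM_H and 0.82 in TAM against BMDM_T, Socs2 has 2.28 and 2.36, and the points of Socs1 and Socs7 are open.

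The balance between Socs3 and Socs2 was compared as the log2 ratio of their counts within each library (0.5 added to each count), which does not depend on scaling. The ratio was 3.33, 3.86 and 3.39 in TAM, 5.80, 4.29, 5.43 and 5.03 in BMDM_T, and 6.30, 4.48, 6.51 and 2.97 in BMDM_H. All TAM values lay below all BMDM_T values, while BMDM_H spanned both groups. TAM averaged 3.53 ± 0.29 (SD, n = 3) and BMDM_T 5.14 ± 0.65 (SD, n = 4), a difference of -1.61 with p = 0.0571 in an exact two-sided permutation test, which is the smallest p that 3 against 4 libraries allow. BMDM_T and BMDM_H, at 5.07 ± 1.67 (SD, n = 4), differed by 0.07 (exact two-sided permutation p = 0.943). TAM and BMDM_H differed by -1.54 (exact two-sided permutation p = 0.229). With 1 to 5 Socs2 counts in 3 of the BMDM_H libraries and 0 in the other, the BMDM_H ratios are imprecise.

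**Figure D4:**
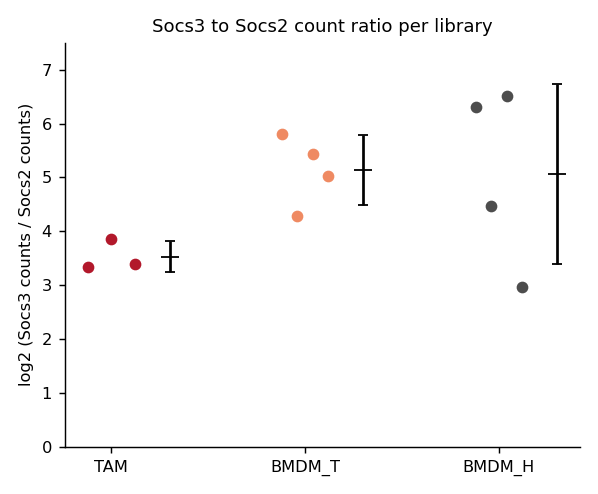
Log2 ratio of Socs3 to Socs2 counts in each library of TAM, BMDM_T and BMDM_H, with group mean and SD as black bars (n = 3, 4 and 4). The TAM points (3.33 to 3.86) lie below all BMDM_T points (4.29 to 5.80).

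The genes around the family were read from 10 lists of the JAK-STAT pathway. Of 76 tested genes on them, 11 were higher and 4 lower in BMDM_T against BMDM_H, which is 19.7%, beside 4.82% of all genes tested. The median log2 fold change was 0.10, beside -0.01 over all genes. This count was 8 without BMDM_T replicate 1, 9 without BMDM_H replicate 2 or replicate 3, and 7 without BMDM_H replicates 3 and 4.

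The counts in this paragraph stand beside 2.82% of all genes tested called higher in BMDM_T against BMDM_H and 2.00% lower. Of 6 tested STAT factors, Stat3, the factor downstream of IL-6 and G-CSF, was called in BMDM_T against BMDM_H. It had 259 to 379 CPM in BMDM_T and 182 to 216 CPM in BMDM_H (log2 fold change 0.71 ± 0.18 SE, edgeR adjusted p = 0.0208). Its adjusted p was 0.0636 without BMDM_T replicate 1, 0.0575 without BMDM_T replicate 4 and 0.08 without BMDM_H replicate 2. Omitting BMDM_H replicates 3 and 4 together gave Stat3 an adjusted p of 0.0911. Stat5a, a STAT factor downstream of GM-CSF and IL-3, had 24.1 ± 3.26 CPM in BMDM_T (SD, n = 4) and 41.7 ± 6.54 CPM in BMDM_H (SD, n = 4), groups that did not overlap, and just missed the threshold (-0.75 ± 0.22 SE, edgeR adjusted p = 0.0529). It passed with replicate numbers as a block (-0.77, adjusted p = 0.0462) and with library totals alone (adjusted p = 0.0266). Of 4 JAK kinases, Jak3, which serves receptors with the common gamma chain, was called (0.97 ± 0.28 SE, edgeR adjusted p = 0.0467), and its call was lost in 11 of 19 alternatives, 7 of them the omission of 1 library (BMDM_T replicate 1, 3 or 4, BMDM_H replicate 1, 2 or 3, or TAM replicate 2, with adjusted p-values of 0.0548 to 0.164). Of 9 tested genes that STAT3 is known to induce, 3 were higher, with a list median of 0.50, beside -0.015 over all genes. By edgeR, 0 were lower, and likewise at an unadjusted p under 0.05 and by DESeq2 and limma-voom. Among them Saa3, which codes for an acute phase protein, had 105 to 251 CPM in BMDM_T and 1.61 to 13.0 CPM in BMDM_H (5.76 ± 0.43 SE, edgeR adjusted p = 5.21e-08), with 1 to 5 counts in each BMDM_H library. Bcl3, an I-kappa-B family co-regulator, had 103 to 153 CPM in BMDM_T and 37.2 to 53.3 CPM in BMDM_H (1.46 ± 0.18 SE, edgeR adjusted p = 3.5e-05). The kinase gene Pim1 had 74.0 to 202 CPM in BMDM_T and 57.6 to 78.0 CPM in BMDM_H, groups that overlapped. Its log2 fold change was 1.14 ± 0.26 SE (edgeR adjusted p = 0.0116, and 0.108 without BMDM_H replicates 3 and 4). With limma-voom the adjusted p was 0.0505. Of 6 STAT5-induced genes Pim1 was thus higher and Id2, a transcription regulator, lower (-0.67 ± 0.18 SE, edgeR adjusted p = 0.0312). Id2 lost its call when BMDM_T replicate 1, 3 or 4 or BMDM_H replicate 1, 2 or 3 was left out (adjusted p-values of 0.0515 to 0.108). Of 5 STAT6-induced genes the lectin gene Mgl2 was higher, at 11.7 to 17.7 CPM in BMDM_T and 2.39 to 7.44 CPM in BMDM_H (1.82 ± 0.35 SE, edgeR adjusted p = 0.0029). The median of that list was -0.62, and at an unadjusted edgeR p under 0.05, 1 of its genes was higher and 2 were lower.

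Receptor chains gave 5 higher and 2 lower of 20 tested in BMDM_T against BMDM_H, which is 35%. Over all genes tested 4.82% were called there, 2.82% higher and 2.00% lower. The smallest p belonged to Epor, the erythropoietin receptor, which was lower (edgeR adjusted p = 0.00343). It had 2 counts over the BMDM_T libraries, 3 of which were at 0, and 41 counts over the BMDM_H libraries, a ratio of 0.0408 (95% exact counting interval 0.00478 to 0.157, counting error only), and the erythroid marker list was lower in the same libraries. The part of erythroid cells in the Epor difference was not tested. Il10ra, the IL-10 receptor chain, was lower too, at 74.8 to 90.0 CPM in BMDM_T and 98.1 to 172.7 CPM in BMDM_H (log2 fold change -0.71 ± 0.18 SE, edgeR adjusted p = 0.0201), with adjusted p-values of 0.0668 when BMDM_T replicate 2, 0.105 when BMDM_H replicate 1 and 0.0514 when BMDM_H replicate 4 was left out, and of 0.113 without BMDM_H replicates 3 and 4. Csf2rb2, a beta chain for IL-3, had 16.2 to 28.6 CPM in BMDM_T and 5.58 to 9.65 CPM in BMDM_H (log2 fold change 1.62 ± 0.32 SE, edgeR adjusted p = 0.0037). Csf2rb, the common beta chain of the GM-CSF, IL-3 and IL-5 receptors, had 200 to 306 CPM in BMDM_T and 78.1 to 152 CPM in BMDM_H (0.91 ± 0.20 SE, edgeR adjusted p = 0.00855, and 0.127 without BMDM_H replicates 3 and 4). These neighboring genes are close copies of each other, so their counts may share reads. Csf3r, the G-CSF receptor, chosen here after its values were seen, had 429 to 851 CPM in BMDM_T and 260 to 554 CPM in BMDM_H (0.83, edgeR adjusted p = 0.0441), and it lost its call in 9 of 19 alternatives. Single libraries whose removal did so were BMDM_T replicates 1, 2 and 3 and BMDM_H replicates 2, 3 and 4, with adjusted p-values of 0.06 to 0.146. Of 10 other brakes on the pathway (phosphatases, PIAS proteins, Sh2b3, Usp18 and Cbl) 0 were called by edgeR, DESeq2 or limma-voom, and 2 were higher at an unadjusted edgeR p under 0.05. Of 5 SOCS box ligase partners 0 were called by edgeR or limma-voom, while 1 was higher by DESeq2 and at an unadjusted edgeR p under 0.05.

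**Figure D5:**
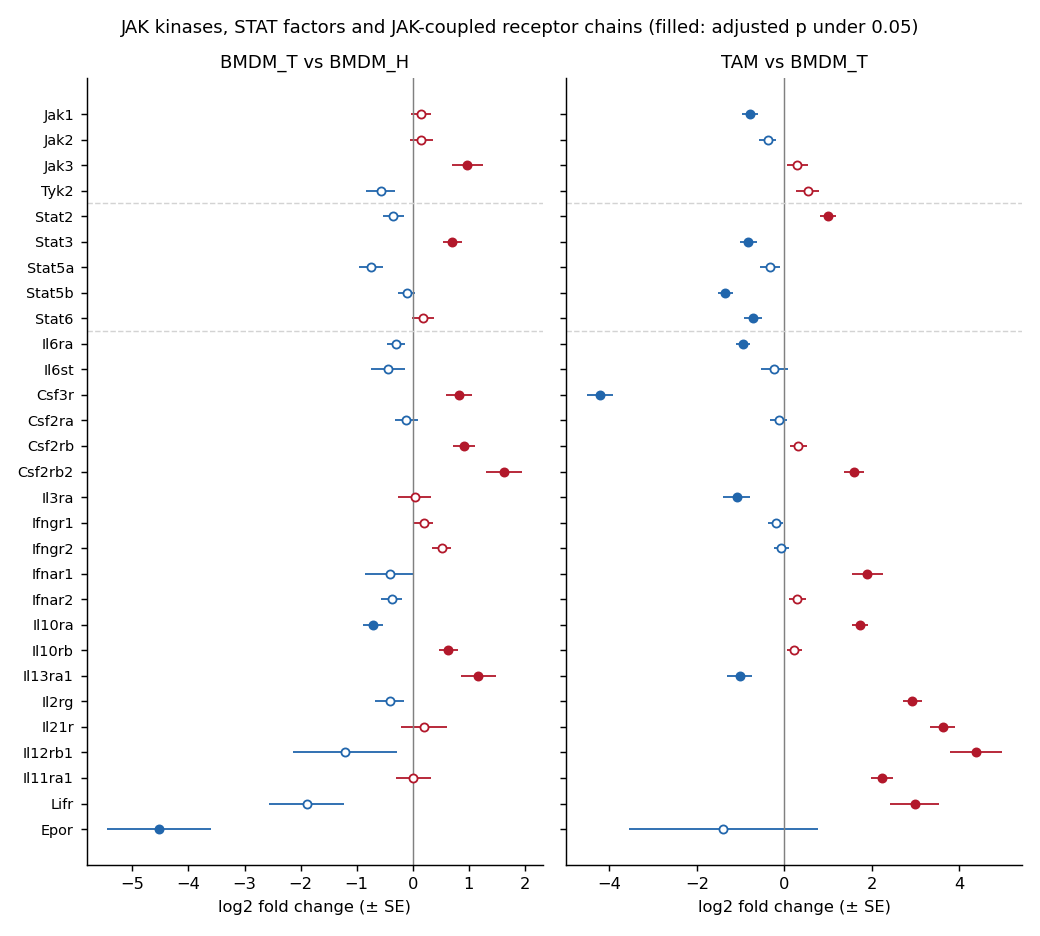
Log2 fold change with its SE (edgeR) of tested JAK kinases, STAT factors and JAK-coupled receptor chains, separated by dashed lines, for BMDM_T against BMDM_H (left) and TAM against BMDM_T (right). Filled circles mark an adjusted p under 0.05, red is higher and blue is lower. Stat3 and Csf3r are higher in the left panel and lower in the right one.

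In TAM against BMDM_T, 29 of the 76 pathway genes were higher and 19 lower, which is 63.2%, beside 58.9% of all genes tested, a share near the background. Stat3 was lower in TAM, at 137 to 228 CPM against 259 to 379 CPM in BMDM_T (log2 fold change -0.82 ± 0.19 SE, edgeR adjusted p = 0.000777). Stat5b (-1.35 ± 0.17 SE), Stat6 (-0.71 ± 0.21 SE) and the kinase gene Jak1 (-0.79 ± 0.19 SE) were lower as well. Stat2, which carries type I interferon signals, was higher (1.00 ± 0.18 SE, edgeR adjusted p = 7.5e-05).

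Among receptors, 8 were higher and 4 lower of 20 in TAM against BMDM_T, which is 60%, beside 58.9% of all genes tested. The share is near the background, so the receptors below are given as a description. Csf3r had 29.4 to 39.6 CPM in TAM and 429 to 851 CPM in BMDM_T (log2 fold change -4.20 ± 0.30 SE, edgeR adjusted p = 2.49e-10). All 13 neutrophil markers were lower in the same comparison. The part of cell makeup in the Csf3r difference, and any bearing of Csf3r on Socs3, was not tested. Il2rg, the common gamma chain, had 136 to 256 CPM in TAM and 23.7 to 30.3 CPM in BMDM_T, and Il21r had 124 to 173 CPM in TAM and 4.20 to 18.5 CPM in BMDM_T. Il10ra, lower in BMDM_T than in BMDM_H, was higher in TAM, at 263 to 297 CPM in TAM and 74.8 to 90.0 CPM in BMDM_T (1.73 ± 0.18 SE, edgeR adjusted p = 4.61e-08). Csf2rb2, chosen after its values were seen, was higher in TAM, by 1.60 ± 0.23 SE on the log2 scale. Of 3 tested cytokines, the gp130 cytokine oncostatin M (Osm), itself a STAT5 target, had 538 to 785 CPM in TAM and 100 to 192 CPM in BMDM_T (2.17 ± 0.22 SE, edgeR adjusted p = 4.19e-08), and Ebi3, a subunit of IL-27, was lower (-1.73 ± 0.18 SE).

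Genes that STAT factors are known to induce were read factor by factor in TAM against BMDM_T. In that comparison 30.1% of all genes tested were called higher and 28.7% lower. Of 6 STAT5-induced genes 4 were higher and 1 lower (median log2 fold change 1.43, beside 0.03 over all genes), the higher ones being Osm, Id2 (2.42 ± 0.18 SE), the cyclin gene Ccnd2 (2.22 ± 0.24 SE) and the survival gene Bcl2l1 (0.68 ± 0.19 SE). Of 9 STAT3-induced genes 3 were higher and 3 lower (median 0.03). Lcn2, a neutrophil granule gene, was lower at 9.45 to 23.9 CPM in TAM against 7954 to 11496 CPM in BMDM_T. It is also on the list of 13 neutrophil markers, all of which were lower in the same comparison. The interleukin 1 antagonist Il1rn (2.62 ± 0.32 SE) and Fgl2 (1.07 ± 0.29 SE) were among the higher ones, and Bcl3 was lower at 69.5 to 87.6 CPM in TAM against 103 to 153 CPM in BMDM_T. The 5 tested STAT6-induced genes gave 3 higher and 2 lower. The arginase gene Arg1 (7.74 ± 0.47 SE), the mannose receptor gene Mrc1 (5.24 ± 0.29 SE) and Mgl2 (3.68 ± 0.20 SE) were higher in TAM, while Chil3 was lower (-6.98 ± 0.50 SE). In TAM, 4 of 10 other brakes were lower by edgeR, beside 28.7% of all genes tested. By edgeR (also at an unadjusted p under 0.05), DESeq2 or limma-voom, 0 of these brakes were higher. Pias3, an inhibitor of STAT3, was at 20.2 to 22.3 CPM in TAM and 60.0 to 65.9 CPM in BMDM_T, and Ptpn6, which codes for the phosphatase SHP-1, at 402 to 509 CPM in TAM and 909 to 999 CPM in BMDM_T. The adaptor gene Sh2b3 (-0.69 ± 0.25 SE) lost its edgeR call with library totals alone (adjusted p = 0.0777) and without BMDM_T replicate 2 (0.0869) or TAM replicate 1 (0.0782), and Pias1 (-0.91 ± 0.37 SE) lost it when any of BMDM_T replicates 1 to 3 or TAM replicates 2 and 3 was left out (0.0737 to 0.113). Whether the levels of these brakes bear on those of Socs3, Socs2 and Cish was not tested. Of the 5 tested SOCS box ligase partners Rnf7 was called higher (0.44 ± 0.17 SE, edgeR adjusted p = 0.0282), a call lost in 8 of 19 alternatives, among them the omission of any 1 BMDM_T library, of TAM replicate 1 or of TAM replicate 3 (adjusted p-values of 0.051 to 0.137).

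Against BMDM_H, 37 of the 76 pathway genes were higher and 18 lower in TAM, which is 72.4%, beside 56.3% of all genes tested. Stat3, higher in BMDM_T than in BMDM_H, had a log2 difference of -0.11 ± 0.19 SE between TAM and BMDM_H (edgeR adjusted p = 0.623). Jak3 was higher (1.27 ± 0.27 SE) and Jak1 lower (-0.65 ± 0.19 SE).

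The tested genes whose level over the 11 libraries was most like that of a member (predicted genes and clone names left out) were found by Pearson's r of log2(CPM + 1), given as a description, since the libraries share 3 groups and the groups differ. For Socs3 they were Ddit3 (r = 0.96), Scamp1, Tlr1, Rnf149 and Oat (r = 0.952). For Socs2 they were Snapc1 (r = 0.97), Coa5, Twf1, Scimp and Ube2o (r = 0.952). For Cish they were Zfp36l1 (r = 0.938), Ldha, Csf2rb2, Slc2a1 and Mif (r = 0.925). For Socs1 the highest was Txndc17 (r = 0.885), followed by Ccdc91, Tmbim4, Rpl17 and Ahcyl2, and for Socs7 it was Sh3bgrl (r = 0.817), followed by Ecd, Prpsap2, Pigq and Dram2. Of these genes Csf2rb2 was also on a pathway list.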

How the data were processed

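The deposited table holds raw counts. The authors' tools, per the submitters' processing notes, include HTSeq, bcl2fastq and STAR 2.4.2a, with build mm10. Their annotation, strand setting, gene filter and treatment of molecular identifiers were not given in the sources used here. The 11 batch 1 libraries have counts in the 10207 rows with a symbol. Over those rows Spearman correlations with the 6 batch 2 libraries were -0.02 to 0.0, so symbols were used for batch 1 only.

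In edgeR 4.0.16 (R 4.3.3), filterByExpr kept 7518 genes, and 1 fit over 3 groups used TMM factors, glmQLFit and glmQLFTest with Benjamini-Hochberg adjustment (threshold 0.05). The procedure was also run on simulated data with far fewer changed genes than TAM and marrow differ in, so that run does not cover those comparisons. SE is the unshrunken log2 fold change over the square root of F. Alternatives used limma 3.58.1, DESeq2 1.42.0, other scalings, no filter, the 2 groups alone, a replicate block and omitted libraries. Members, lists and tests were chosen with earlier results of these data known. Named pathway genes were JAK, STAT and ligase genes and, per other list, the up to 4 called genes with the smallest p in a comparison. Csf3r within marrow and Csf2rb2 in TAM against BMDM_T fall outside this rule and were chosen after their values were seen. Results for 1 pathway gene and 1 list are not reported here. Locations are from GENCODE M21 (GRCm38).

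Counts of same-group libraries differed beyond sampling noise (chi-square per degree of freedom 2.67 to 14.62). Since no label states that each library is a separate mouse, the p-values reflect only how far these libraries spread, and that spread may be technical. Same-numbered BMDM_T and BMDM_H libraries deviated together (r = 0.21, 0.24, 0.13 and 0.12 across genes, each over the limit of 0.1), which hints at pairs that the labels do not explain. For TAM and BMDM_T r was -0.03 to 0.08.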

Additional observations from a re-analysis of the deposited data

Results flagged for a closer look

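The Socs2 level of BMDM_T replicate 2, 22.7 CPM from 27 counts, stood apart from the other 3 BMDM_T libraries, which had 8.61 to 10.4 CPM. Its gap to the nearest library was 0.874 of the group's range, above Dixon's limit of 0.829 for 4 libraries. In 16 groups checked (8 members in 2 marrow groups) this was the 1 past the limit, and chance flags about 1 in 20 groups. Without this library Socs2 in BMDM_T against BMDM_H had a log2 fold change of 1.83 and an edgeR adjusted p = 0.0905.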

How the results depend on the processing

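In each of the 19 alternatives Socs3 kept its direction and its call in all 3 comparisons (log2 fold change 2.20 to 2.44 in BMDM_T against BMDM_H, 0.67 to 1.01 in TAM against BMDM_T and 3.00 to 3.34 in TAM against BMDM_H). Socs2 and Cish did so in TAM against both marrow groups, and Cish in BMDM_T against BMDM_H passed in none (adjusted p 0.0562 to 0.217). Socs2 in BMDM_T against BMDM_H did not pass with limma-voom (2.37) or without BMDM_H replicates 3 and 4 (2.43), and ranged from 1.82 to 2.76 with 1 library left out. It was not tested with only those 2 groups, where it fell under the filter. With library totals alone, Socs1 (0.68) and Socs7 (0.98) passed in TAM against BMDM_T. With 1 library left out Socs1 ranged from 0.23 to 0.68 and Socs7 from 0.63 to 1.09. The count of members called in BMDM_T against BMDM_H was 1 with limma-voom, with the 2 groups alone and without BMDM_H replicates 3 and 4, and 1 to 2 with 1 library left out. In TAM against BMDM_T it was 5 with library totals alone and 3 to 6 with 1 library left out. Pathway genes called in BMDM_T against BMDM_H were 7 without BMDM_H replicates 3 and 4 and 8 to 17 with 1 library left out. The cause of these changes was not tested. Scaling by totals moved the median log2 fold change of all genes from -0.015 to -0.125 in BMDM_T against BMDM_H (155 higher and 218 lower calls, in place of 212 and 150) and from 0.027 to 0.178 in TAM against BMDM_T. All genes called in BMDM_T against BMDM_H fell to 179 without BMDM_H replicates 3 and 4 and 238 without replicate 2, from 362. With the replicate block no call on a member changed: Socs3 had 2.34 and Socs2 2.25 in BMDM_T against BMDM_H, and the pathway count was 18 in place of 15. Of the named pathway genes, Stat5a gained a call in BMDM_T against BMDM_H (adjusted p = 0.0462) and Rnf7 lost it in TAM against BMDM_T (0.0602). Of 41 further values for named pathway genes, with 774 alternatives, 55 alternatives ended a call, 2 made one and 0 turned a direction. Low depth limits Socs2 in BMDM_H (9 counts over 4 libraries) and Socs4 to Socs6.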
